A study of Mus musculus with 21 samples.

Results

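Glycolysis and the handling of pyruvate were followed through 31 genes in mouse embryonic stem cells. The set ran from the glucose transporters to the pyruvate dehydrogenase complex and its kinases. Members were found by symbol among 31053 Ensembl gene IDs. The 31 symbols matched 32 IDs, because Aldoa has a second ID, which had 0 counts in all 21 libraries. Of these IDs, 30 had enough counts to be tested. Pfkfb4 and the second Aldoa ID did not, and Pfkfb4 lay between 0 and 3.66 CPM in the 21 libraries. CPM is the count per 1e6 counts of the tested genes, with the library total scaled by edgeR's TMM factor.

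The cells were E14Tg2a, a male line of 129 background in which 1 allele of the pluripotency gene Rex1 carries the short-lived reporter GFPd2. All groups share this line and the same growth text: NDiff227 basal medium with 3 µM CHIR99021 (CH, an inhibitor of GSK3) and 1 µM PD0325901 (PD, an inhibitor of MEK) for 1 week, then alternating addition and removal of CH, PD and the cytokine LIF. The 7 groups of 3 libraries were labelled 2i+LIF PO, 2i+LIF LP, CH+LIF LP, LIF LP, 2i+LIF HP, CH+LIF HP and LIF HP, where 2i commonly stands for CH and PD together. The study sampled cells at zero passage and after 1 and 2 months, but whether LP or HP was the longer culture is not in the labels. They also do not say whether replicates were separate cultures, so p-values measure only the spread between these libraries.

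Glycolysis splits glucose into pyruvate and yields ATP without oxygen. Pyruvate is then either reduced to lactate by lactate dehydrogenase and exported, or carried into mitochondria and oxidised by the pyruvate dehydrogenase complex, which pyruvate dehydrogenase kinases switch off. Pluripotent stem cells are known for a high glycolytic rate, and naive cells, the state that 2i media favour, for using mitochondrial oxidation as well. Many of the genes are textbook targets of the hypoxia-inducible factors, which bind the core letters ACGTG or GCGTG of the hypoxia response element.

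The members taken up at most length below are Slc16a3 (ENSMUSG00000025161, chr11:120948480-120960868, plus strand), Pdk1 (ENSMUSG00000006494, chr2:71873224-71903858, plus strand) and Ldhb (ENSMUSG00000030246, chr6:142490249-142507957, minus strand), all protein coding, in GENCODE M21 on GRCm38. They were called among the LP and HP groups in every fit tried, and the 250 bases before their RefSeq start sites (build GRCm38.p6) are shown for that reason, each 5′ to 3′ on the strand of the gene. Capitals mark ACGTG or GCGTG on either strand, so a match on the other strand reads CACGT or CACGC. The windows are chr11:120948817-120949066 on the plus strand for Slc16a3, chr2:71872974-71873223 on the plus strand for Pdk1 and chr6:142507958-142508207 on the minus strand for Ldhb. The Slc16a3 window lies within the GENCODE span of its gene, between exons, since RefSeq places the start farther in. The other windows end where the GENCODE genes begin.
Slc16a3: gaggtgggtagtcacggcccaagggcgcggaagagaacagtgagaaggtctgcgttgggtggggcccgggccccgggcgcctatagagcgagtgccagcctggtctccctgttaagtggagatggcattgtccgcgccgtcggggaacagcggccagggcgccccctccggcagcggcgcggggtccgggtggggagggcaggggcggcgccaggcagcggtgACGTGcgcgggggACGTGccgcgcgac
Pdk1: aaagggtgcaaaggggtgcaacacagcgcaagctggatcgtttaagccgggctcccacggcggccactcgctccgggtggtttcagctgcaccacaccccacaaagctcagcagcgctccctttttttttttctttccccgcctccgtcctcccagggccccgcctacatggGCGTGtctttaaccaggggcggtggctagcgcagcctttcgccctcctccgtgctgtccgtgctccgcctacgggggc
Ldhb: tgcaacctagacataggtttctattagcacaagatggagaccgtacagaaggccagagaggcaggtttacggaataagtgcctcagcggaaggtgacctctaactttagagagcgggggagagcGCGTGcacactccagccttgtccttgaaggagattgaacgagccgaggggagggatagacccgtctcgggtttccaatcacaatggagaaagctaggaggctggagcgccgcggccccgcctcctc
Slc16a3 had 2 matches, and Pdk1 and Ldhb had 1 each. Over the members, 30 of 31 symbols had a window in the RefSeq table (Slc2a3 had none), and 23 of these 30 (76.7%) held at least 1 match, against 38.6% of 27025 windows of the same length. The members' windows were also richer in G and C (median 62%, against 52%) and in CpG (median 15, against 6), and both motifs contain a CpG. The E-box letters CACGTG contain ACGTG, so each E-box also counts as a match above. They were in 5 of the 30 windows (16.7%) and in 6.05% of all. The STAT palindrome TTCNNNGAA, searched on both strands, was in 0 of the 30 windows and in 7.18% of all. The TCF/LEF letters CTTTGAT, also on both strands, were in 0 of 30 and in 3.23% of all.

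Counts assigned to genes ranged from 1132126 to 3783043 per library, of which the members took 0.165 to 0.659%, or 2976 to 21960 counts. A count of 0 allows up to 3 counts, here 0.748 to 3.09 CPM depending on the library, and this limit covers counting error only. The test was edgeR's quasi-likelihood F-test on all 21 libraries with Benjamini-Hochberg adjustment over 10643 genes, and "called" below means an adjusted p under 0.05. A pair of libraries stood apart: mitochondrial genes held 39.1% of gene counts in 2i+LIF PO replicate 1, and Gm42418, which overlaps ribosomal RNA, held 31.7% in 2i+LIF LP replicate 1. The files of the 2i+LIF PO group carry another run name than the others, so run and PO cannot be told apart. Some pathway targets went against the labels. Dusp6, which MEK signalling induces, had 0, 1.23 and 0 CPM in the libraries labelled LIF HP, but 34.4 and 26.3 CPM in replicates 2 and 3 of 2i+LIF LP. Sp5, a Wnt target, had 135, 494 and 455 CPM in 2i+LIF HP and at most 1.52 CPM in CH+LIF LP. In LIF HP, labelled without CH, it had 19.6, 30.2 and 23.7 CPM, and in CH+LIF HP 46.7, 33.4 and 17.5 CPM. Groups are therefore named as labelled.

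Stem cell markers were present in every group. All 10 had counts in every library, and their summed level ran from 1350 to 4274 CPM. The lowest range, 1350 to 2023 CPM, was that of 2i+LIF HP, where Tdgf1 had 65.5, 10.4 and 33.5 CPM against at least 327 CPM in every other library. Of 9 primitive endoderm markers, 5 to 6 had counts in the 2i+LIF HP libraries, with a summed level of 36.7 to 63.8 CPM, against 24.7 to 82.7 CPM elsewhere, and Sox17 was at most 0.762 CPM in any library. Of 8 fibroblast markers, 4 to 5 had counts there. Fn1 made up most of that list's sum, which was 166 to 255 CPM, and Dcn, Postn and Col3a1 were at 0 in this group. Of 8 trophoblast markers, 6 to 7 had counts in 2i+LIF HP, while Elf5 was at 0 in all libraries. Cdx2, however, had 21.4, 9.81 and 6.71 CPM in 2i+LIF HP and at most 2.24 CPM elsewhere, Krt8 reached 42 CPM there and 55.3 CPM in 2i+LIF PO, and Krt18 reached 56.5 CPM in 2i+LIF HP. The summed trophoblast level was 127 to 142.8 CPM in 2i+LIF HP, 73.2 to 102 CPM in 2i+LIF LP, 45.1 to 94.9 CPM in CH+LIF LP, 35.9 to 77.7 CPM in LIF LP, 47.7 to 67.8 CPM in CH+LIF HP, 136 to 187 CPM in LIF HP and 137 to 197 CPM in 2i+LIF PO. For Tdgf1, 2i+LIF HP was called lower than LP of the same medium and than the other HP groups, and HP against LP was called to differ both for CH+LIF less 2i+LIF and for LIF less 2i+LIF. The lower values of Lin28a were called in 2i+LIF HP and LIF HP, each against LP of its medium, and for Dppa5a LIF HP was called above the HP group of 2i+LIF. Col4a1, of the primitive endoderm list, had 0 counts in 2i+LIF HP and 9.12, 0.861 and 5.59 CPM in 2i+LIF LP, and was called. Of the trophoblast list, Cdx2 and Krt18 were called higher at HP than at LP in 2i+LIF, and Cdx2 was called also between the HP groups of 2i+LIF and CH+LIF, lower in the latter. Tfap2c had 152.02, 152.73 and 121.58 CPM in LIF HP and at most 79.7 CPM in the other LP and HP groups. It was called higher in LIF HP than in LIF LP (log2 fold change 1.70 with SE 0.39, adjusted p 0.00739 in edgeR) and than in CH+LIF HP and 2i+LIF HP, and for LIF less CH+LIF in the difference of HP and LP. Krt8 passed the joint test of the 6 groups. The median log2 fold change of the 5 tested trophoblast markers was 1.60 in 2i+LIF HP and 1.75 in LIF HP, each against LP. These markers move with the 2i+LIF HP and LIF HP results below, and their part in those results was not tested. In bulk RNA, fewer cells of a type and less RNA per cell cannot be told apart.

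Among the 6 LP and HP groups, 5 members differed in the joint edgeR test: Pdk1 (adjusted p 8.4e-05), Slc16a3 (0.000106), Ldhb (0.00403), Hk1 (0.00639) and Pfkp (0.0393). That is 16.7% of the 30 tested, against 13.1% of all 10643 genes. The count was 4 to 11 when 1 library was left out. It was 11 without 2i+LIF PO replicate 1, 8 without 2i+LIF PO replicate 2 or 2i+LIF LP replicate 2 or 3, and 10 without both libraries that stood apart. Pdk1, Slc16a3 and Ldhb passed in every fit tried, with adjusted p of at most 0.000501, 0.00144 and 0.0425. For Hk1 the highest adjusted p was 0.052 and for Pfkp it was 0.107. The members differed in size of change as well: the highest group mean was 33.2 times the lowest for Slc16a3, where the lowest rests on 10 counts, and 1.45 times for Dlat, a subunit of the pyruvate dehydrogenase complex.

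Between media at LP, no member was called by edgeR. CH+LIF LP set against 2i+LIF LP gave 0 members, with 4 at an unadjusted p under 0.05, and 0% of all genes (950 genes at that unadjusted p). For LIF LP against CH+LIF LP it was 0 members, with 1 at an unadjusted p under 0.05, against 0.047% of all genes. LIF LP against 2i+LIF LP likewise gave 0 members, with 5 at an unadjusted p under 0.05, against 0.489% of all genes. DESeq2 also called 0 members in all 3.

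At HP the media differed in 3 members. CH+LIF HP against 2i+LIF HP called 3 (10% of the members, against 2.02% of all genes): Slc16a3 and Pdk1 were higher and Ldhb was lower in CH+LIF HP. The count was 1 without CH+LIF HP replicate 2, 5 without 2i+LIF LP replicate 1, 5 by DESeq2 and 6 without both libraries that stood apart. LIF HP against CH+LIF HP called 1 (3.33%, against 1.47% of all genes), Pdk1, which was lower in LIF HP. Reads without a unique alignment made up 30.3, 35.4 and 34.3% of the reads in LIF HP and 28, 28.3 and 25.6% in CH+LIF HP. Those without a feature made up 13.3, 8.46 and 16.69% against 16.71, 17.8 and 22.9%. Neither measure overlapped, and their part in this call was not tested. LIF HP against 2i+LIF HP called 1 (3.33%, against 3.78% of all genes), Slc16a3, which was higher in LIF HP, and 0 without 2i+LIF HP replicate 2 or LIF HP replicate 2. The median log2 fold change of the 30 members in the first of these contrasts was 0.34, where that of all genes was -0.01. It was 0.02 for LIF HP against CH+LIF HP and 0.12 for LIF HP against 2i+LIF HP, where that of all genes was 0.01 and -0.02.

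Between HP and LP, members were called in 2i+LIF and in LIF. 2i+LIF had 5 (16.7%, against 3.67% of all genes): Ldhb was higher at HP, and Slc16a3, Slc16a1, Tpi1 and Pfkp were lower. Leaving out 1 library gave 1 to 7, being 1 when 2i+LIF HP replicate 2 was absent and 7 when 2i+LIF PO replicate 1 was. It gave 2 without 2i+LIF LP replicate 1 or 2i+LIF HP replicate 3. It gave 3 without 2i+LIF HP replicate 1, LIF LP replicate 1 or 2, CH+LIF HP replicate 1 or 2, or LIF HP replicate 1 or 3. The median log2 fold change of the members was -0.34, and that of all genes 0.01. It was -0.19 for the members in CH+LIF and -0.20 in LIF, where that of all genes was 0.00 and 0.01. In 2i+LIF the members' median was -0.61 when replicate 3 of 2i+LIF LP was left out and -0.22 when replicate 1 of that group was. In CH+LIF it was -0.06 without CH+LIF LP replicate 2, and in LIF it was -0.07 without LIF HP replicate 3. CH+LIF HP against CH+LIF LP called 0 members in edgeR and in DESeq2, with 2 at an unadjusted p under 0.05 (Pkm and Ldha), against 0.0094% of all genes. LIF HP against LIF LP called 2 (6.67%, against 9.96% of all genes), Pdk1 and Slc16a3, both lower at HP. Reads without a unique alignment made up 30.3, 35.4 and 34.3% of the reads in LIF HP and 23.1, 23.7 and 25.6% in LIF LP, and reads without a feature 13.3, 8.46 and 16.7% against 24.6, 18.9 and 17%. Neither measure overlapped between these groups, and their part in the LIF results was not tested. The count was 1 without LIF HP replicate 3, 4 without 2i+LIF PO replicate 1, 4 by DESeq2 and 7 without both libraries that stood apart.

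Whether HP differed from LP by more in 1 medium than in another was tested directly. No member was called in edgeR in the fit of all libraries. CH+LIF less 2i+LIF gave 0 members (7 at an unadjusted p under 0.05, 1 by DESeq2) against 0.0188% of all genes. LIF less 2i+LIF gave 0 (5 at that unadjusted p, 0 by DESeq2) against 0.15% of all genes. LIF less CH+LIF gave 0 (4 at that unadjusted p, 1 by DESeq2) against 0.423% of all genes. The lowest adjusted p was that of Pdk1 in LIF less CH+LIF, 0.0699, with a log2 difference of -2.14 (SE 0.53). It passed without 2i+LIF PO replicate 1, 2i+LIF LP replicate 1, CH+LIF LP replicate 1 or 2i+LIF HP replicate 1, without both libraries that stood apart, when only these groups were fitted and by DESeq2. Without the filter on low counts, Slc16a3 and Ldhb passed for CH+LIF less 2i+LIF and Gapdh for LIF less CH+LIF. Slc16a3 passed by DESeq2 too, and Gapdh when only these groups were fitted. In the fit of all libraries, then, the calls of Slc16a3, Ldhb and Pdk1 were not shown to differ between media.

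**Figure D1:**
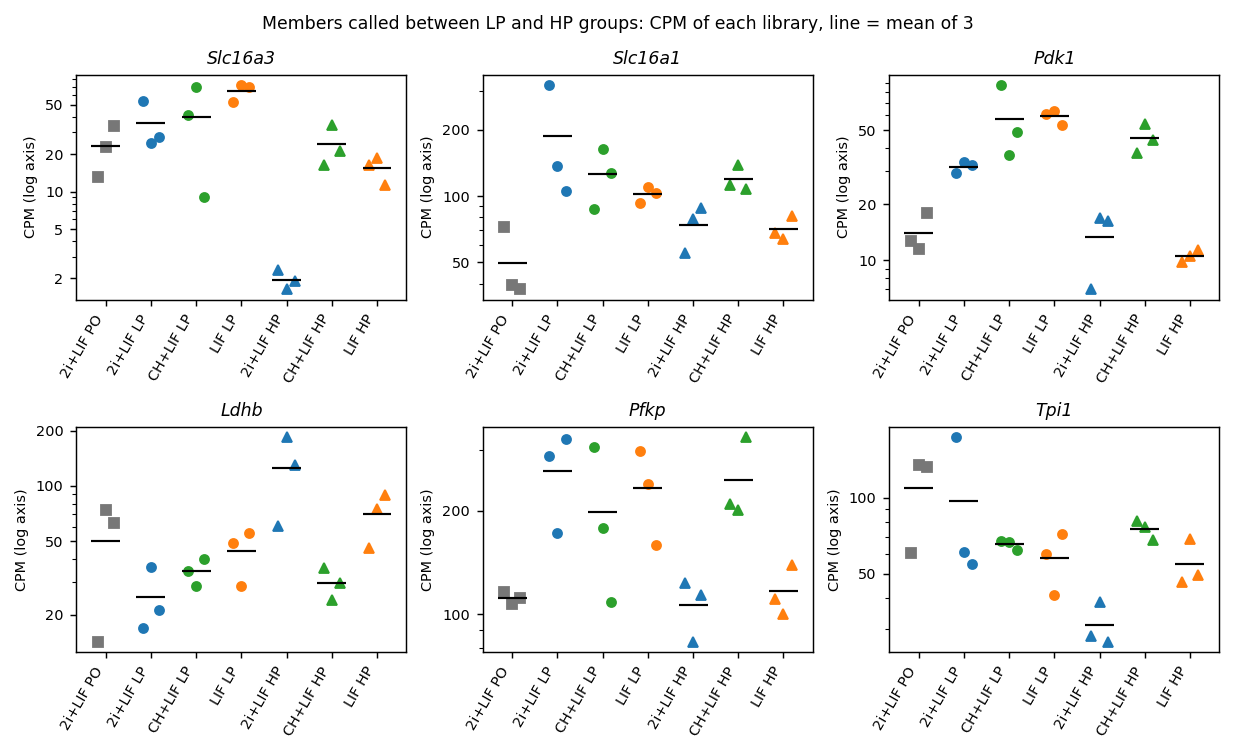
CPM (log axis) of the 6 members called between LP and HP groups, for each of the 21 libraries in 7 groups; points are libraries and lines are means of 3. Slc16a3 sits between 1.64 and 2.32 CPM in 2i+LIF HP and at 9.11 CPM or above in the other libraries, and Pdk1 is at 17.9 CPM or below in 2i+LIF PO, 2i+LIF HP and LIF HP.

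Of the glucose transporters, Slc2a1 (GLUT1, the widespread basal transporter) was not called in any comparison of the fit of all libraries. Its group means ran from 55.6 ± 19.4 CPM (SD, n = 3) in 2i+LIF HP to 144.7 ± 42.5 CPM in LIF LP. In LIF HP it had 41.7, 72.7 and 54.6 CPM against 170, 95.6 and 168 CPM in LIF LP. These groups did not overlap (log2 fold change -1.36 with SE 0.47, adjusted p 0.0647 in edgeR). The contrast was called with the replicate block, without the filter on low counts, when only these groups were fitted, by DESeq2, without both libraries that stood apart and without either of them. Slc2a3 (GLUT3, a high-affinity transporter) had means of 182 to 301 CPM in the 6 LP and HP groups, and was not called between them.

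Hexokinases trap glucose as glucose 6-phosphate. Hk1, the constitutive form, had 88.3, 42 and 49.8 CPM in 2i+LIF HP and 49, 30.2 and 34 CPM in LIF HP. It had 23.4, 19.1 and 21.3 CPM in CH+LIF HP, and the LP groups had 27.3, 34.9 and 15.7 CPM (2i+LIF), 8.24, 21.8 and 18.2 CPM (CH+LIF) and 15.4, 13.9 and 22.6 CPM (LIF). The libraries of 2i+LIF HP thus all lay above those of the CH+LIF groups, LIF LP and 2i+LIF LP. No pair of LP and HP groups was called for Hk1 in the fit of all libraries, the nearest being CH+LIF HP against 2i+LIF HP (log2 fold change -1.50 with SE 0.41, adjusted p 0.0529 in edgeR). That contrast was called with DESeq2 and with its size factors, without the filter on low counts, when only these groups were fitted, and without both libraries that stood apart. It was called too without 2i+LIF PO replicate 1, 2i+LIF LP replicate 1 or 3 or CH+LIF LP replicate 1. LIF HP against LIF LP was called without both libraries that stood apart and when only these groups were fitted. An antisense gene, Hk1os, overlaps Hk1, and without a stated strand setting their reads cannot be told apart. Hk2, the inducible hexokinase, had means of 147.5 to 230 CPM in these 6 groups and was not called between them.

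Phosphofructokinase makes the committed step. Pfkp, the platelet-type subunit, had 289, 173 and 324 CPM in 2i+LIF LP and 123, 83.4 and 114 CPM in 2i+LIF HP. It had 306, 179 and 109 CPM in CH+LIF LP, 298, 240 and 159 CPM in LIF LP, 209, 201 and 327 CPM in CH+LIF HP and 111, 100 and 139 CPM in LIF HP. All libraries of 2i+LIF HP and LIF HP were below all of 2i+LIF LP, LIF LP and CH+LIF HP. Of the LP and HP contrasts, 2i+LIF HP against 2i+LIF LP was called (log2 fold change -1.29 with SE 0.37, adjusted p 0.0475 in edgeR), and that call held in 7 of the 21 fits that left out 1 library and was lost when only these groups were fitted. It was lost without 2i+LIF LP replicate 1 or 3, without any library of 2i+LIF HP, and without each of 9 libraries of other groups: 2i+LIF PO replicate 3, CH+LIF LP replicate 2, LIF LP replicates 1 and 2, CH+LIF HP replicates 1 and 2, and all 3 of LIF HP. Of the uncalled contrasts, LIF HP against LIF LP and CH+LIF HP against 2i+LIF HP passed by DESeq2, and both passed with LIF HP against CH+LIF HP without both libraries that stood apart and when only the groups compared were fitted. Pitrm1 overlaps Pfkp on the other strand. The liver subunit Pfkl (means of 24 to 65.7 CPM in the 6 groups), the muscle subunit Pfkm (5.52 to 15.8 CPM) and Pfkfb3, which makes the activator fructose 2,6-bisphosphate (4.24 to 7.64 CPM), were not called between LP and HP groups.

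Of the enzymes from fructose bisphosphate to pyruvate, Tpi1 alone was called among LP and HP groups in the fit of all libraries. Triosephosphate isomerase interconverts the products of aldolase. Its gene had 28.3, 38.7 and 26.8 CPM in 2i+LIF HP, the lowest values of all 21 libraries. At LP it had 175, 61.1 and 54.8 CPM in 2i+LIF, 67.3, 66.6 and 62.3 CPM in CH+LIF and 60, 41.2 and 71.7 CPM in LIF. It had 81.1, 76.8 and 67.8 CPM in CH+LIF HP and 46.4, 68.4 and 49.5 CPM in LIF HP. Against 2i+LIF LP the log2 fold change was -1.62 (SE 0.41, edgeR adjusted p 0.0215). The call was lost without 2i+LIF LP replicate 1, the library at 175 CPM (log2 fold change -0.86), and without each library of 2i+LIF HP, with an adjusted p of up to 0.218. It was lost as well without both libraries that stood apart (log2 fold change -0.88) and when only these groups were fitted. CH+LIF HP against 2i+LIF HP, not called in the fit of all libraries, passed without 2i+LIF LP replicate 1, without both libraries and when only these groups were fitted.

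The remaining steps passed no test among LP and HP groups in the fit of all libraries. Aldolase A (Aldoa) had means of 670 to 1240 CPM in these groups, and glucose phosphate isomerase (Gpi1) 207 to 313 CPM. For Aldoa, LIF HP against 2i+LIF HP (log2 fold change 0.89 with SE 0.40, adjusted p 0.214 in edgeR) passed without both libraries that stood apart. Pyruvate kinase (Pkm) had 349 to 410 CPM in the LP groups and 193 to 212 CPM in the HP groups. Its highest HP library was 242 CPM and its lowest LP library 268 CPM. The edgeR adjusted p for HP against LP was 0.285 in 2i+LIF, 0.889 in CH+LIF and 0.104 in LIF, where it passed without 2i+LIF PO replicate 1, without both libraries that stood apart and when only these groups were fitted. Enolase 1 (Eno1) had 220, 64.6 and 45.9 CPM in 2i+LIF LP, where the highest value was the library that stood apart, and means of 29.9 to 45.5 CPM in the other 5 groups. Its contrast of HP and LP in 2i+LIF (log2 fold change -1.57 with SE 0.50, adjusted p 0.0783 in edgeR) passed without the filter on low counts, by DESeq2, and without 2i+LIF PO replicate 1, 2i+LIF LP replicate 3 or 2i+LIF HP replicate 1. Pgam1, a phosphoglycerate mutase, had means of 49 to 85 CPM in these groups. Gapdh had 29.7 to 86.8 CPM and Pgk1 1.89 to 5 CPM. For Gapdh, LIF HP against LIF LP (log2 fold change 1.53 with SE 0.64, adjusted p 0.125 in edgeR) passed without the filter, without both libraries that stood apart and when only these groups were fitted. Aldoc, Eno2 and Eno3 had means of at most 18.6, 4.68 and 13.4 CPM.

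Several of these enzymes have near-identical copies, and only unique alignments were counted. At 95% identity or more over at least 200 bases, transcripts of 78 other genes, 75 of them pseudogenes, matched Gapdh and covered 88% of its transcript. Copies covered 85.6% for Eno1, 76.8% for Ldhb, 71.2% for Pdhb, 68.8% for Pgk1, 65.5% for Pkm, 55% for Ldha, 50.2% for Gpi1, 43.1% for Pgam1 and 19.3% for Tpi1. Bnip3 was covered to 94.2%. Counts of these genes are uncertain, as reads may be dropped or shared. No such copy was found for Aldoa, Aldoc, Eno2, Eno3, Slc16a3, Slc16a1, Pdk1, Hk1, Hk2 or Slc2a3.

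At the pyruvate branch, the lactate dehydrogenases differed in their pattern. Ldhb encodes the heart-type subunit, which favours turning lactate back into pyruvate. It had 60.9, 184 and 130 CPM in 2i+LIF HP. The other HP groups had 35.7, 23.9 and 29.7 CPM (CH+LIF) and 45.9, 74.5 and 89.6 CPM (LIF). The LP groups had 16.8, 36.2 and 21.2 CPM (2i+LIF), 34.4, 28.4 and 40.2 CPM (CH+LIF) and 49, 28.5 and 55.3 CPM (LIF). Every library of 2i+LIF HP was above every library of the 3 LP groups and of CH+LIF HP, while the range in LIF HP overlapped. In 2i+LIF, Ldhb was 5.06-fold higher at HP than at LP (log2 fold change 2.32 with SE 0.49, adjusted p 0.0059 in edgeR), a call lost without 2i+LIF HP replicate 2 (adjusted p 0.0596) and when only these groups were fitted. It was 4.21-fold higher in 2i+LIF HP than in CH+LIF HP (log2 fold change of CH+LIF HP against 2i+LIF HP -2.07 with SE 0.48, adjusted p 0.0177 in edgeR), a call that held in 1 of the 6 fits without 1 library of these groups, the one without 2i+LIF HP replicate 1.

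Ldha encodes the muscle-type subunit, which favours lactate. It had means of 187 ± 58.7 CPM in 2i+LIF HP, 299 ± 83.2 CPM in CH+LIF HP and 362 ± 128 CPM in LIF HP, and 423 ± 285, 868 ± 710 and 621 ± 57.4 CPM in 2i+LIF LP, CH+LIF LP and LIF LP. CH+LIF LP replicate 1 stood at 1684 CPM. In the fit of all libraries it was called in no comparison, and the joint adjusted p was 0.0538. The joint test passed with the replicate block, without the filter on low counts, when only the 6 groups were fitted, by DESeq2 and without both libraries that stood apart. It passed too without 2i+LIF PO replicate 1 or 2, 2i+LIF LP replicate 1 or 3 or CH+LIF LP replicate 3. Of the LP and HP contrasts, that of 2i+LIF passed without both libraries that stood apart and that of LIF when only its groups were fitted.

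Lactate leaves the cell with a proton through monocarboxylate transporters. Slc16a3 encodes MCT4, the form of strongly glycolytic cells. It had 2.32, 1.64 and 1.92 CPM in 2i+LIF HP, from 5, 3 and 2 counts. In the other HP groups it had 16.2, 34.3 and 21.3 CPM (CH+LIF HP) and 16.5, 18.5 and 11.3 CPM (LIF HP). At LP it had 54, 24.5 and 27.4 CPM in 2i+LIF, 41.7, 69.6 and 9.11 CPM in CH+LIF and 52.9, 72.4 and 69.7 CPM in LIF. So 2i+LIF HP overlapped with no other group, and LIF HP lay wholly below LIF LP.

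Slc16a3 in 2i+LIF HP rested on 10 counts in 3 libraries. By pooled counts its level was 16.6 times higher in 2i+LIF LP (95% interval of counting error 8.84 to 35.2), 12.7 times higher in CH+LIF HP (6.68 to 27.1) and 8.1 times higher in LIF HP (4.16 to 17.6). In LIF LP, the group with the highest mean, it was 32.6 times higher (17.5 to 68.6). The edgeR log2 fold change was -4.10 (SE 0.64, adjusted p 0.000471) for 2i+LIF HP against 2i+LIF LP and 3.57 (SE 0.64, adjusted p 0.00246) for CH+LIF HP against 2i+LIF HP. Both calls held in all 21 fits that left out 1 library. For LIF HP against 2i+LIF HP it was 2.94 (SE 0.66, adjusted p 0.0109), a call lost without 2i+LIF HP replicate 2 or LIF HP replicate 2. LIF HP against LIF LP gave -2.05 (SE 0.51, adjusted p 0.0121), lost without LIF HP replicate 3 (adjusted p 0.069).

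Slc16a1 encodes MCT1, which moves lactate in either direction. It had 321, 138 and 105 CPM in 2i+LIF LP and 54.8, 78.5 and 88.2 CPM in 2i+LIF HP. It had 87.7, 164 and 127 CPM in CH+LIF LP, 93.1, 110 and 103 CPM in LIF LP, 113, 139 and 108 CPM in CH+LIF HP and 68, 64 and 81.4 CPM in LIF HP. The 2 groups of 2i+LIF did not overlap (log2 fold change of HP against LP -1.35 with SE 0.38, adjusted p 0.0426 in edgeR). The call was lost without both libraries that stood apart (log2 fold change -0.72), when only these groups were fitted and with a replicate block, and held in 9 of 21 fits without 1 library. It was lost without 2i+LIF LP replicate 1, which was at 321 CPM (log2 fold change -0.70), and without any library of 2i+LIF HP, LIF LP or CH+LIF HP or LIF HP replicates 1 and 3.

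Pyruvate dehydrogenase kinases phosphorylate and silence the complex that sends pyruvate to oxidation. At HP, Pdk1 had 6.97, 16.9 and 16.3 CPM in 2i+LIF, 9.79, 10.5 and 11.3 CPM in LIF and 37.6, 53.9 and 44.2 CPM in CH+LIF. At LP it had 29.5, 33.6 and 32.4 CPM in 2i+LIF, 87.7, 36.9 and 48.6 CPM in CH+LIF and 61.1, 63.7 and 53.4 CPM in LIF. All libraries of 2i+LIF HP and LIF HP lay below all of the other 4 groups. They were also the LP and HP groups in which Dusp6 was at or below 4.91 CPM in every library. In 2i+LIF PO, where Pdk1 was at 12.7, 11.5 and 17.9 CPM, Dusp6 had 3.69, 2.61 and 2.24 CPM. Dusp6 was low in 2i+LIF LP replicate 1 too (0.701 CPM), where Pdk1 was at 29.5 CPM. Dusp6 was read as a check of the labels, and its relation to Pdk1 was not tested.

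The differences of Pdk1 were called in 3 contrasts of LP and HP groups. LIF HP was 5.64-fold below LIF LP (log2 fold change -2.50 with SE 0.40, adjusted p 0.000335 in edgeR) and 4.29-fold below CH+LIF HP (-2.11, SE 0.40, adjusted p 0.00619). Both calls held in all 21 fits that left out 1 library. CH+LIF HP was 3.38-fold above 2i+LIF HP (1.78 with SE 0.39, adjusted p 0.0101 in edgeR), a call lost without 2i+LIF HP replicate 1 or CH+LIF HP replicate 2 (adjusted p of up to 0.0731). For 2i+LIF HP against 2i+LIF LP the log2 fold change was -1.27 (SE 0.39, edgeR adjusted p 0.0629), which did not pass. It passed by DESeq2, without 2i+LIF PO replicate 1 or CH+LIF LP replicate 1 and without both libraries that stood apart.

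The related kinases Pdk2 and Pdk3 were not called. Pdk3 had means of 19.2 to 30.7 CPM and Pdk2 1.55 to 8.29 CPM in the 6 LP and HP groups. The members that encode parts of the complex itself were also uncalled: the E1 subunit genes Pdha1 (177 to 287 CPM) and Pdhb (29.5 to 54.8 CPM) and the E2 gene Dlat (27.8 to 40.3 CPM). Bnip3, a mitophagy receptor and hypoxia target, had 15.2 to 35.4 CPM and passed in no comparison.

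**Figure D2:**
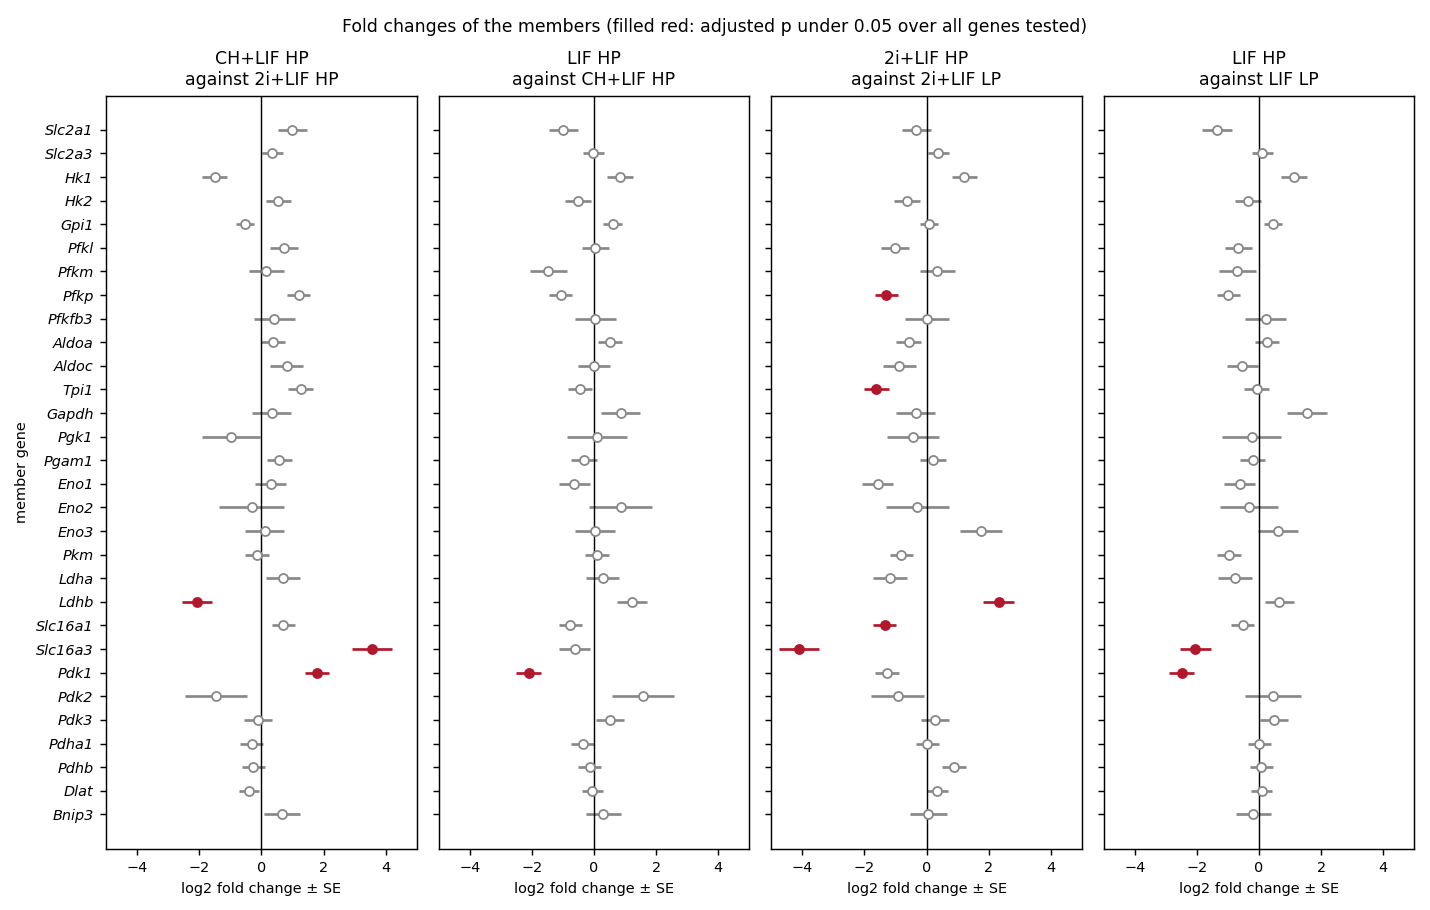
Log2 fold change of each of the 30 tested members in 4 contrasts, with 1 SE as error bar; filled red points have an adjusted p under 0.05 over all genes. Slc16a3, at -4.10 in 2i+LIF HP against 2i+LIF LP, is farthest from 0.

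Ratios within pairs of isoenzymes compare genes inside a library, where gene length cancels between groups. They are given as descriptions on the scale of log2 of CPM + 1, without a test. Ldha to Ldhb was 0.67 ± 0.69 (SD, n = 3) in 2i+LIF HP and from 2.35 ± 0.58 (LIF HP) to 4.33 ± 1.17 (CH+LIF LP) elsewhere. Its highest value in 2i+LIF HP, 1.17, was below the lowest of any other group, 1.69. Hk2 to Hk1 was 1.25 ± 0.16 in 2i+LIF HP and 1.86 ± 0.58 in LIF HP, and its mean was 2.53 to 3.71 in the other 5 groups. Pdk1 to Pdk3 was -0.78 ± 0.44 in 2i+LIF HP and -1.41 ± 0.40 in LIF HP. It was -0.05 ± 0.74 in 2i+LIF PO and 0.76 to 1.43 on average in the rest. The ratios of Slc2a3 to Slc2a1 (means of 0.96 to 2.97), Pfkp to Pfkl (0.72 to 2.55), Aldoa to Aldoc (5.56 to 6.49) and Eno1 to Eno3 (1.05 to 4.54) varied as well. Between LP and HP, the ranges of Ldha to Ldhb, Hk2 to Hk1, Pdk1 to Pdk3 and Slc2a3 to Slc2a1 lay apart in 2i+LIF and in LIF and overlapped in CH+LIF. Those of Aldoa to Aldoc and Eno1 to Eno3 lay apart in LIF, and that of Pfkp to Pfkl overlapped in all 3 media. How many other gene pairs lie apart in each medium was not computed. Of all genes, edgeR called 9.96% between HP and LP in LIF, 3.67% in 2i+LIF and 0.0094% in CH+LIF. The pattern by medium is therefore not shown to be particular to these pairs.

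**Figure D3:**
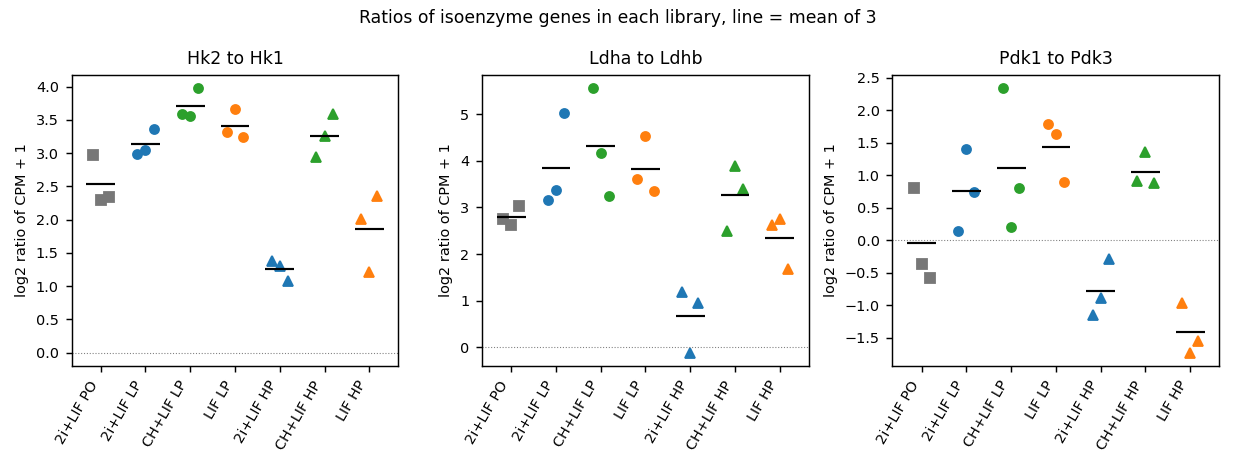
Log2 ratio of CPM + 1 for 3 pairs of isoenzyme genes in each of 21 libraries, by group; lines are means of 3. Ldha to Ldhb is at most 1.17 in 2i+LIF HP, below all other groups.

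Members were also tested in each of the 6 other groups against 2i+LIF PO. 2i+LIF LP had 5 called (16.7%, against 5.06% of all genes), CH+LIF LP 5 (16.7%, against 8.31%) and LIF LP 5 (16.7%, against 12%). 2i+LIF HP had 6 called (20%, against 10.6% of all genes), CH+LIF HP 5 (16.7%, against 5.82%) and LIF HP 3 (10%, against 12.3%). The share in LIF HP was below the background and that in LIF LP near it. With only the groups compared in the fit, 2i+LIF LP and LIF HP had 0 called. These 6 comparisons share the PO libraries, so their calls are not independent, and run and PO cannot be told apart. Stem cell markers were called in them too. Of 10, 3 were lower than in PO in 2i+LIF LP, 5 in CH+LIF LP, 5 in LIF LP, 6 in 2i+LIF HP, 1 in CH+LIF HP and 2 in LIF HP. Nanog, Zfp42 and Dppa5a were lower in all 3 LP groups and 2i+LIF HP, Esrrb in CH+LIF LP, LIF LP and 2i+LIF HP, and Tfcp2l1 in all groups but 2i+LIF LP. Zfp42 was lower in LIF HP as well, and Tdgf1 in 2i+LIF HP. Lin28a was higher in CH+LIF LP and LIF LP, and Pou5f1 in LIF HP. Of the trophoblast list, Krt8, Krt18 and Tfap2c were lower in LIF LP, Krt8 in CH+LIF LP and Tfap2c in CH+LIF HP, while Cdx2 was higher in 2i+LIF HP. Col4a1 was higher in LIF LP. The part of these markers in the results against PO was not tested. Leaving out 1 library moved most of these counts. For 2i+LIF LP it was 1 without PO replicate 3, and 2 without PO replicate 2 or 2i+LIF LP replicate 3. It was 3 when the library left out was 2i+LIF LP replicate 1, CH+LIF LP replicate 2, CH+LIF HP replicate 1 or 2, or any library of LIF LP or LIF HP. For CH+LIF LP it was 2 without PO replicate 2 or CH+LIF LP replicate 2 or 3, and 3 without PO replicate 3 or CH+LIF LP replicate 1. For LIF LP it was 3 without its replicate 2 or 3 and 9 without 2i+LIF LP replicate 1. For 2i+LIF HP it was 2 without PO replicate 3 or its own replicate 3. For CH+LIF HP it was 0 without its replicate 2, 1 without its replicate 1 or 3, 2 without PO replicate 3 and 3 without PO replicate 2. For LIF HP it was 0 without its replicate 2 and 1 without its replicate 1 or 3. Without both libraries that stood apart the counts were 5, 7, 9, 9, 10 and 8, in the order 2i+LIF LP, CH+LIF LP, LIF LP, 2i+LIF HP, CH+LIF HP and LIF HP. When only PO and the group compared were fitted, the calls that remained were Pdk1 and Hk1 in CH+LIF LP, Tpi1 and Slc16a3 in 2i+LIF HP, Pdk1, Pgam1 and Hk1 in CH+LIF HP and all 5 in LIF LP. Other settings each ended a few calls: Slc2a3 in CH+LIF LP and 2i+LIF HP without the filter on low counts, Slc16a1 in CH+LIF HP with DESeq2 size factors, Hk1 in 2i+LIF LP without mitochondrial genes and Gm42418, and Pfkp in 2i+LIF LP without both libraries that stood apart.

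Of the glucose entry genes, Slc2a3 was higher in PO than anywhere else. It had 445, 514 and 605 CPM in PO and at most 373 CPM in any other library. It fell in 2i+LIF LP (log2 fold change -1.52 with SE 0.35, adjusted p 0.0128 in edgeR), CH+LIF LP (-1.16, SE 0.35, 0.0378) and 2i+LIF HP (-1.14, SE 0.35, 0.0347). The first of these calls was lost without PO replicate 3 (adjusted p 0.0536). The second was lost in 8 fits without 1 library: PO replicate 2 or 3, each replicate of CH+LIF LP, LIF LP replicate 2 or 3, or LIF HP replicate 3. The third was lost without PO replicate 2 or 3 or 2i+LIF HP replicate 3.

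Hk1 had 44.3, 66.2 and 87 CPM in PO. It fell in CH+LIF LP (log2 fold change -2.05 with SE 0.42, adjusted p 0.00347 in edgeR) and LIF LP (-1.92, SE 0.41, 0.0033), calls that held in all 21 fits without 1 library. It was also called in CH+LIF HP (-1.64, SE 0.41, 0.0173) and barely in 2i+LIF LP (-1.34, SE 0.40, 0.0488), of which the last held in 5 of 21 fits and was lost with the replicate number as a block. That call was kept only without PO replicate 1, 2i+LIF LP replicate 2, CH+LIF LP replicate 1 or 2i+LIF HP replicate 1 or 2. The call in CH+LIF HP was lost without PO replicate 3 or any CH+LIF HP library. In 2i+LIF HP, at 60 ± 24.8 CPM, Hk1 was not called against PO.

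Hk2 had 356, 327 and 443 CPM in PO. It fell in 2i+LIF HP to 231, 105 and 106 CPM (log2 fold change -1.34 with SE 0.41, adjusted p 0.0368 in edgeR) and in LIF HP to 200, 71.4 and 178 CPM (-1.32, SE 0.41, 0.0367). The groups did not overlap. The first call was lost without PO replicate 2 or 3, 2i+LIF HP replicate 2 or 3 or LIF HP replicate 3, and the second without PO replicate 1 or 3 or LIF HP replicate 2 or 3.

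Further down the pathway, calls against PO went in both directions. Gapdh had 49.1, 289 and 433 CPM in PO, the lowest in the library that stood apart. It fell in LIF LP to 22.6, 19.3 and 47.1 CPM (log2 fold change -3.11 with SE 0.67, adjusted p 0.00342 in edgeR), a call kept in all 21 fits without 1 library, at -2.50 without PO replicate 3. It was also called lower in 2i+LIF LP (-2.40, SE 0.64, 0.0297), 2i+LIF HP (-2.76, SE 0.66, 0.00819) and CH+LIF HP (-2.43, SE 0.65, 0.0254), where ranges overlapped with PO and each call was lost without PO replicate 3, with log2 fold changes of -1.79, -2.13 and -1.82. The first stood at -3.28 without 2i+LIF LP replicate 2. The first was lost also without PO replicate 2 or 2i+LIF LP replicate 1 or 3, the second also without 2i+LIF HP replicate 3, and the third also without PO replicate 2 or any library of CH+LIF HP.

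Pgam1 had 14.2, 30.6 and 37.6 CPM in PO and rose in CH+LIF HP to 81.7, 82.5 and 90.6 CPM (log2 fold change 1.61 with SE 0.42, adjusted p 0.0215 in edgeR). It rose as well in LIF LP (1.49, SE 0.41, 0.0193), CH+LIF LP (1.37, SE 0.41, 0.0388) and LIF HP (1.28, SE 0.41, 0.0428). All 4 calls were lost without PO replicate 1, the library that stood apart, although without it and 2i+LIF LP replicate 1 together all 4 passed. Without a library of their own group they were lost for CH+LIF HP and CH+LIF LP in each case and for LIF LP without replicate 2 or 3. For CH+LIF LP the call was lost also without PO replicate 2 or CH+LIF HP replicate 2, and for LIF HP it was kept only without PO replicate 3, CH+LIF LP replicate 1 or any library of 2i+LIF LP or 2i+LIF HP.

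Tpi1 had 60.1, 136 and 132 CPM in PO and fell in 2i+LIF HP, where all 3 libraries were below PO (log2 fold change -1.80 with SE 0.40, adjusted p 0.00535 in edgeR, kept in all 21 fits without 1 library). Pfkl fell in 2i+LIF HP from 30.1, 87.3 and 116 CPM to 36.7, 15.3 and 20.1 CPM (-1.69, SE 0.45, 0.0168), with overlapping ranges, and was lost without PO replicate 3 or 2i+LIF HP replicate 2 or 3. Eno1 fell in LIF HP from 148.2, 58.6 and 82.8 CPM to 28.9, 15.4 and 45.3 CPM (-1.71, SE 0.51, 0.0294), lost without PO replicate 1 or LIF HP replicate 1 or 2. Pfkp was higher in 2i+LIF LP than in PO, where it had 117, 107 and 112 CPM (1.23, SE 0.37, 0.0496), a call kept only without PO replicate 1, 2i+LIF LP replicate 2, CH+LIF LP replicate 1 or 3, 2i+LIF HP replicate 3 or CH+LIF HP replicate 3.

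The pyruvate branch genes Pdk1 and Slc16a1 were low in PO. Pdk1 had 12.7, 11.5 and 17.9 CPM there and rose in CH+LIF LP (log2 fold change 2.03 with SE 0.37, adjusted p 0.00151 in edgeR) and LIF LP (2.07, SE 0.37, 0.000794), in all 21 fits without 1 library. It rose also in CH+LIF HP (1.68, SE 0.37, 0.00913), a call lost without CH+LIF HP replicate 2 (adjusted p 0.0546). In 2i+LIF HP and LIF HP its level, 13.4 ± 5.56 and 10.5 ± 0.773 CPM, was not called against PO. Slc16a1 had 72.3, 39.5 and 37.6 CPM in PO and rose in 2i+LIF LP (1.92, SE 0.38, 0.00541, in all 21 fits without 1 library, though at 1.30 without 2i+LIF LP replicate 1). It rose in CH+LIF LP (1.35, SE 0.38, 0.028), lost without PO replicate 2 or 3 or CH+LIF LP replicate 2 or 3, and in CH+LIF HP (1.28, SE 0.38, 0.0444), kept only without PO replicate 1, CH+LIF LP replicate 1, 2i+LIF HP replicate 1 or 3 or any library of 2i+LIF LP.

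Slc16a3 had 13.2, 22.7 and 33.4 CPM in PO. In 2i+LIF HP it fell, its pooled level in PO being 12.7 times higher (95% interval of counting error 6.8 to 26.9; log2 fold change -3.52 with SE 0.63, adjusted p 0.000867 in edgeR), in all 21 fits without 1 library. It was higher in LIF LP (1.47, SE 0.48, 0.0454), a call kept only without PO replicate 3, CH+LIF LP replicate 2 or 3, 2i+LIF HP replicate 1 or 3 or any library of 2i+LIF LP, and lost without both libraries that stood apart.

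**Figure D4:**
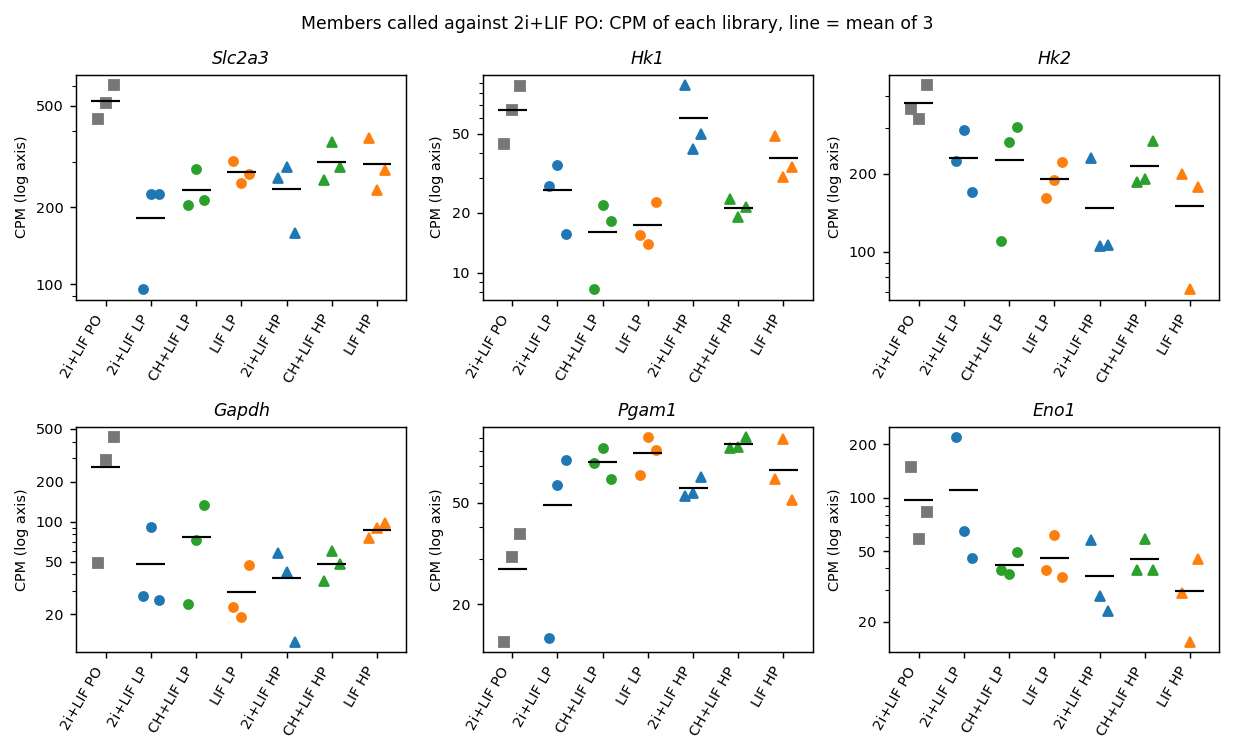
CPM (log axis) in each of 21 libraries for 6 members called against 2i+LIF PO; lines are means of 3. Slc2a3 is at 445 CPM or above in the 3 PO libraries and at most 373 CPM in all others, while the Gapdh value of PO replicate 1, 49.1 CPM, lies among those of the other groups.

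Among 40 other genes of glycolysis and pyruvate metabolism, 21 were tested. In 2i+LIF HP against 2i+LIF LP 2 (9.52%, against 3.67% of all genes) were higher and 0 lower: Pdp2, a phosphatase that switches the pyruvate dehydrogenase complex back on, and Fbp2, a gluconeogenic bisphosphatase. Pdp2 had 121, 102 and 126 CPM in 2i+LIF LP and 428, 383 and 342 CPM in 2i+LIF HP (log2 fold change 1.72 with SE 0.29, adjusted p 0.000853 in edgeR). It was lower in CH+LIF HP (112, 106 and 88.3 CPM) and in LIF HP (193, 150 and 172 CPM) than in 2i+LIF HP, and both differences were called. It was also called lower in LIF LP than in 2i+LIF LP. In LIF HP against LIF LP 4 were higher and 1 lower (23.8%, against 9.96% of all genes). Pdp2, Fbp2, Mpc2 (a subunit of the mitochondrial pyruvate carrier) and Tigar were higher, and Pcx, pyruvate carboxylase, was lower: it had 27.5, 33.2 and 20.2 CPM in LIF LP and 3.61, 2.46 and 1.03 CPM in LIF HP (-3.37, SE 0.55, 0.000453). Pcx was also the only gene of this list called for a difference between media in HP against LP (LIF less CH+LIF, -3.20 with SE 0.73, adjusted p 0.0459 in edgeR). In CH+LIF HP against CH+LIF LP 0 were called in edgeR, with 1 at an unadjusted p under 0.05. LIF HP against CH+LIF HP called Pcx, which was lower. Against PO, Fbp2 was called lower in the 3 LP groups and CH+LIF HP. Pdp2 was lower in CH+LIF LP and LIF LP and higher in 2i+LIF HP, and Pcx was higher in CH+LIF LP and LIF LP. Mpc1, the other subunit of the carrier, was higher in 2i+LIF HP and LIF HP, Mpc2 in LIF HP, and Dld, the E3 gene of the pyruvate dehydrogenase complex, in CH+LIF HP, while Tigar was lower in LIF LP.

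Of 26 genes of the hypoxia-inducible factor pathway, 22 were tested. In 2i+LIF HP against 2i+LIF LP 0 were higher and 2 lower (9.09%, against 3.67% of all genes): Plod2, a collagen lysyl hydroxylase, and Epas1, which encodes HIF2-alpha. Plod2 had 68, 29.7 and 48.6 CPM in 2i+LIF LP and 4.65, 4.91 and 8.63 CPM in 2i+LIF HP (log2 fold change -3.05 with SE 0.48, adjusted p 0.000481 in edgeR). In LIF HP against LIF LP 3 were higher (Ak4, Nupr1 and Higd1a) and 1 was lower (Epas1), which is 18.2% against 9.96% of all genes. CH+LIF HP had 1 call against 2i+LIF HP, Plod2, which was higher (2.04, SE 0.48, 0.0186), or 4.55% against 2.02% of all genes. LIF HP against 2i+LIF HP called 2 (9.09%, against 3.78% of all genes), both higher: Plod2 (2.11, SE 0.48, 0.0129) and Fam162a (2.55, SE 0.49, 0.00363), which had 84, 128 and 130 CPM in LIF HP and 26, 22.9 and 7.67 CPM in 2i+LIF HP. The median log2 fold change of the list was 0.56 there, where that of all genes was -0.02. It was 0.04 for CH+LIF HP against 2i+LIF HP, 0.14 for LIF HP against CH+LIF HP and -0.04, 0.03 and -0.02 for HP against LP in 2i+LIF, CH+LIF and LIF. LIF HP against CH+LIF HP called 1 (4.55%, against 1.47% of all genes), Ak4, which was higher (2.01, SE 0.44, 0.0176). Hif1a, the oxygen-regulated subunit itself, was not called between LP and HP groups. Of the list, 6 of 22 (27.3%) passed the joint test of the 6 groups, against 13.1% of all genes. Against PO, Ak4 was lower in the 3 LP groups, 2i+LIF HP and CH+LIF HP, and Nupr1 was higher in every group but LIF LP. Hif1a was higher in LIF LP and 2i+LIF HP, Epas1 and Plod2 were lower in 2i+LIF HP, P4ha1 in CH+LIF LP and Kdm3a in CH+LIF HP.

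Of 9 tested genes of the pentose phosphate pathway, which branches off at glucose 6-phosphate, 1 was called in the 9 contrasts of LP and HP groups (11.1%, against 14.3% of all genes called in at least 1 of them), Prps1, in 2i+LIF, where it was higher at HP than at LP (log2 fold change 1.45 with SE 0.41, adjusted p 0.0475 in edgeR). The 22 genes of the tricarboxylic acid cycle, all tested, gave 0 calls in edgeR in each of these 9 contrasts, with 0 to 2 at an unadjusted p under 0.05. Of all genes, 9.96% were called in LIF HP against LIF LP and 0 to 3.78% in the other 8, so in those 8 a count of 0 is near the background. Against PO, citrate synthase (Cs) was lower in 2i+LIF LP, CH+LIF LP, LIF LP and 2i+LIF HP. It had 95.5, 146.2 and 134 CPM in PO and 24.5, 40.9 and 35.2 CPM in 2i+LIF LP (-1.89, SE 0.36, 0.00383). Of the pentose phosphate genes, Pgls was higher than in PO in all groups but CH+LIF HP, and Tkt in the 3 HP groups. H6pd was lower in 2i+LIF LP, LIF LP and 2i+LIF HP, and Pgd in LIF LP.

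Over all 30 tested members, 13 were called in at least 1 of the 19 comparisons (43.3%, against 33.7% of all genes). In the 9 contrasts of LP and HP groups 6 were called at least once (20%, against 14.3%), and in the 6 contrasts with PO 12 were (40%, against 28%). The other 17 passed in none of these tests in the fit of all libraries. By group mean, 2i+LIF HP held the lowest level of 9 members, PO the highest of 8 and LIF LP the highest of 7. The summed level of the members was 2716 to 2962 CPM in 2i+LIF HP and 3784 to 4116 CPM in 2i+LIF LP. It was 2966 to 3585 CPM in CH+LIF HP and 3753 to 5126 CPM in CH+LIF LP, and 3470 to 3672 CPM in LIF HP and 3802 to 4415 CPM in LIF LP, so HP lay below LP without overlap in all 3 media. Abundant genes weigh most in this sum. Aldoa alone made up 535 to 830 CPM of it in 2i+LIF HP, and had its highest mean, 1240 CPM, in LIF HP. The sum of the 40 other genes of glycolysis and pyruvate metabolism went the other way in 2i+LIF and LIF. In 2i+LIF it was 854 to 942 CPM at HP and 565 to 631 CPM at LP. In LIF it was 822 to 947 CPM at HP and 487 to 555 CPM at LP, and in CH+LIF the groups overlapped. In PO the members' sum was 2614, 4172 and 5474 CPM, the lowest in the library that stood apart.

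**Figure D5:**
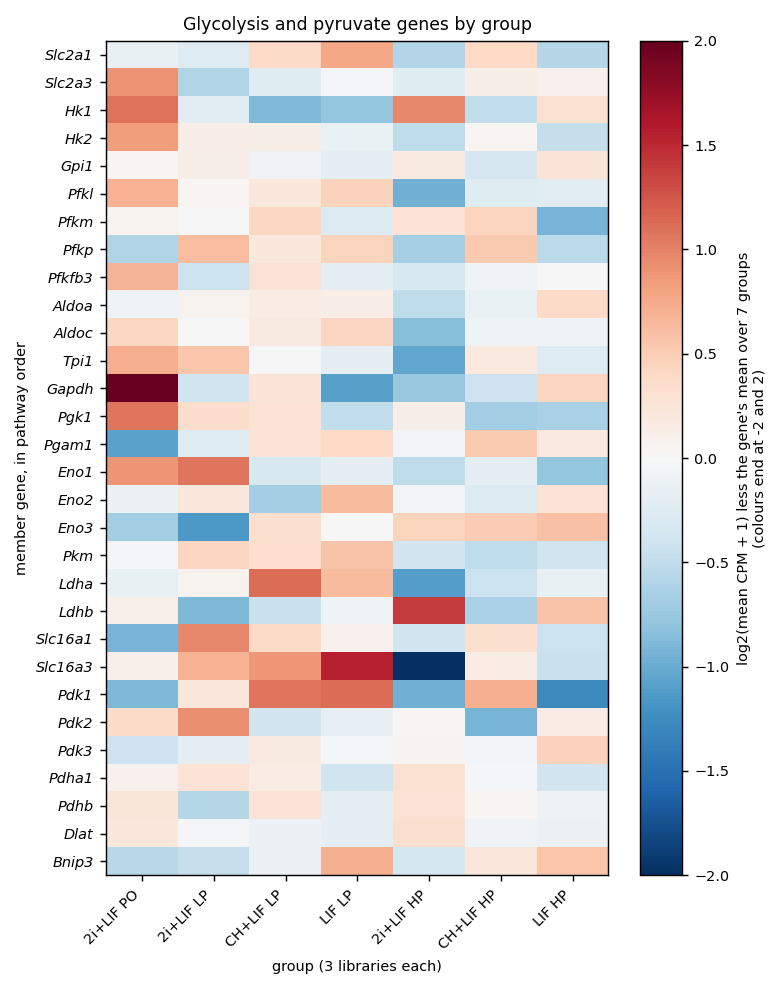
Mean level of each of the 30 tested members in 7 groups of 3 libraries, as log2(mean CPM + 1) less the gene's mean over groups; colours end at -2 and 2. The deepest blue is Slc16a3 in 2i+LIF HP (1.96 ± 0.346 CPM), and the deepest red is Gapdh in 2i+LIF PO (257 ± 194 CPM).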

How the data were processed

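RNA was measured by mRNA sequencing in 21 libraries of E14Tg2a cells, 3 in each of 7 groups taken from the labels. The deposited values are raw read counts per Ensembl gene for each library. The authors aligned reads with STAR 2.6.0a to mm10 and counted them with HTSeq, per the submitters' processing notes. Reads without a unique alignment, without a feature or ambiguous were left out of library sizes; those without a unique alignment made up 20.8 to 35.4% of the reads in the tables. The annotation, strand setting and read filters are not given in the sources used here. Symbols and positions came from GENCODE M21 (GRCm38), which held 31011 of the 31053 IDs, and promoter windows from RefSeq (GRCm38.p6).

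Counts were tested with edgeR 4.0.16 (R 4.3.3): TMM scaling, filterByExpr, 1 quasi-likelihood fit of all 21 libraries and Benjamini-Hochberg adjustment over 10643 genes, threshold 0.05, in 15 pair contrasts, 3 differences between contrasts and 1 joint test of the 6 LP and HP groups. PO was left out of the joint test because of its run name. SE is the log2 fold change over the square root of F. CPM was computed here as the count over the TMM-scaled total of tested genes, times 1e6. Alternatives were DESeq2 1.42.0, its size factors, no filter, only the groups compared, a replicate block, no mitochondrial genes or Gm42418, and libraries left out. Copies were found with BLAST 2.17.0. Every member is described, and each gene of the other lists that was called or checks a label is named. Members and lists were chosen with earlier results of these data known. The ratio of Pfkfb3 to Pfkfb4 was not computed because Pfkfb4 was not tested.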

Additional observations from a re-analysis of the deposited data

How the results depend on the processing

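No call of a member in a pair contrast changed direction under any alternative. Medians of the members near 0 did change sign: for 2i+LIF HP against PO the median log2 fold change went from -0.24 to 0.07 and for LIF LP against PO from -0.21 to 0.09, both without PO replicate 3, and for LIF less 2i+LIF from 0.19 to -0.04 without both libraries that stood apart. It also did so for 2i+LIF LP and CH+LIF LP against PO, in the LP contrasts, in LIF HP against the other HP groups and in the other differences between media, under at least 1 setting each. The number of members called moved by over 1.5 times in the following cases. Without both libraries that stood apart it was 6 for CH+LIF HP against 2i+LIF HP, 3 for LIF HP against CH+LIF HP, 2 for LIF HP against 2i+LIF HP and 7 for LIF HP against LIF LP. Against 2i+LIF PO it was then 9 for LIF LP, 10 for CH+LIF HP and 8 for LIF HP, and it was 1 for the difference of LIF less CH+LIF and 10 in the joint test. The members' median log2 fold change against 2i+LIF PO was also lower in that setting for every group. It went from -0.03 to -0.50 for 2i+LIF LP, from -0.05 to -0.23 for CH+LIF LP and from -0.21 to -0.39 for LIF LP. At HP it went from -0.24 to -0.42 for 2i+LIF, from -0.32 to -0.58 for CH+LIF and from -0.40 to -0.56 for LIF. With only the groups compared the number called was 6 for CH+LIF HP against 2i+LIF HP, 5 for LIF HP against CH+LIF HP, 1 for 2i+LIF HP against 2i+LIF LP and 8 for LIF HP against LIF LP. Against 2i+LIF PO it was then 0 for 2i+LIF LP, 2 for CH+LIF LP, 2 for 2i+LIF HP, 3 for CH+LIF HP and 0 for LIF HP. It was also 2 for LIF less CH+LIF and 11 in the joint test. Without a filter it was 4 for LIF HP against LIF LP, 2 for CH+LIF less 2i+LIF, 1 for LIF less CH+LIF and 11 in the joint test. DESeq2 gave 5 for CH+LIF HP against 2i+LIF HP, 4 for LIF HP against LIF LP, 1 for CH+LIF less 2i+LIF, 1 for LIF less CH+LIF and 10 in the joint test. The cause was not tested.

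Leaving out 1 library at a time gave 1 to 5 members for CH+LIF HP against 2i+LIF HP, 0 to 1 for LIF HP against 2i+LIF HP, 1 to 7 for 2i+LIF HP against 2i+LIF LP, 1 to 4 for LIF HP against LIF LP, 0 to 1 for LIF less CH+LIF and 4 to 11 in the joint test. Against 2i+LIF PO it gave 1 to 6 for 2i+LIF LP, 2 to 6 for CH+LIF LP, 3 to 9 for LIF LP, 2 to 9 for 2i+LIF HP, 0 to 6 for CH+LIF HP and 0 to 4 for LIF HP. For the other 7 comparisons each such fit gave the count already reported.

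Replicate numbers are shared between groups, and deviations correlated above 0.1 for every pair in 1 of 15 contrasts, that of 2i+LIF LP and PO (0.40, 0.34 and 0.18); the labels do not say what a number shares. With the replicate block that contrast had 4 members called, without Hk1. The block also gave 4 for 2i+LIF HP against 2i+LIF LP, 3 for LIF HP against LIF LP and 6 in the joint test, and against PO 6 for LIF LP (Pfkp gained), 7 for 2i+LIF HP (Ldhb gained) and 6 for CH+LIF HP (Pfkp gained). In the other 12 comparisons it changed no call. Calls that rest on few counts, such as those of Slc16a3 in 2i+LIF HP, carry a wide counting error, and the effect of depth was not tested.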
